A study of Mus musculus with 2 samples.

Results

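Many pseudogenes are copies of another gene and are named for it, and that gene is here called the parent. The 90 rows of the expression table whose symbol ends in -ps or whose description holds the word pseudogene were taken, of 12860 rows in all (0.700%). The symbol chose 25 of them and the description all 90. For 60 of these rows the table also lists the parent, and those 60 rows have 52 parents.

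Whole bone marrow came from 1 P95H mouse, which carries the Srsf2 P95H change on 1 allele (KI/+), and from 1 Srsf2 WT mouse. Both mice were on a C57BL/6 background, carried R26CreERT2, a tamoxifen-activated Cre recombinase at the Rosa26 locus, and received tamoxifen in vivo. The donor of the P95H library was a 14 week old female and that of the WT library a 12 week old male, so genotype, sex, age and individual mouse cannot be told apart. With 1 library per genotype there are no replicates and no test, and every difference below is between these libraries. The marrow label was checked against marker genes: 8 of 8 neutrophil and 8 of 9 erythroid genes were listed and 0 of 3 hepatocyte genes. Of 3 skeletal muscle genes 2 were listed, both at low level: Acta1 with 75 counts in P95H and 52 in WT, and Myh4 with 43 and 39. The neutrophil genes summed to 91575 CPM in P95H and 48576 CPM in WT, and the erythroid genes to 6346 and 12196 CPM. The gene counts hold no allele, so the P95H change itself was not analysed here.

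A processed pseudogene arises when an mRNA is reverse transcribed and the copy is inserted elsewhere in the genome, so it lacks the introns and usually the promoter of its parent. An unprocessed pseudogene arises when a stretch of DNA is duplicated, introns included, and then loses its function. Abundant housekeeping mRNAs, such as those of ribosomal proteins, have left many processed copies in mammalian genomes. A short read from a stretch that parent and copy share has more than 1 possible origin.

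The sequences of the copies that differ most between the libraries show how close they are to their parents. They are from GENCODE M21 on the mouse build GRCm38 and are written 5′ to 3′ on the strand of the gene. Hmgn2, which encodes a nucleosome-binding protein of the high mobility group, lies on the minus strand of chromosome 4, and the whole gene spans chr4:133964738-133968650. Its longer coding form has 279 bases and its shorter form 273. The 6 extra bases, at positions 91 to 96 counted from the A of the start codon, are in capitals.
Hmgn2: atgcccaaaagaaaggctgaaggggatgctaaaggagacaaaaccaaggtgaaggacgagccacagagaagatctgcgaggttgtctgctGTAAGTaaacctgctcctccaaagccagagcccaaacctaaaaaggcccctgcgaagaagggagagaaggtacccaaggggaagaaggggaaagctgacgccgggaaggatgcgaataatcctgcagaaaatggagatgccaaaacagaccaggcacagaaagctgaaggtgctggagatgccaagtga
Hmgn2-ps1, a single exon on the plus strand at chr5:84123313-84123591, is identical to this longer form over all 279 bases. Gm10282, on the minus strand at chr8:72304909-72305181, holds the shorter form without a single substitution.

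The other sequences are shown because each comes from a row past 2-fold whose parent was not. BC002163, whose whole copy lies on the plus strand at chr16:42955631-42955949, copies 319 of the 321 coding bases of Ndufs5, an accessory subunit of respiratory complex I. Its first 300 bases are printed, and capitals mark T81C and A105G, with the Ndufs5 base first and positions counted from the A of the start codon.
BC002163: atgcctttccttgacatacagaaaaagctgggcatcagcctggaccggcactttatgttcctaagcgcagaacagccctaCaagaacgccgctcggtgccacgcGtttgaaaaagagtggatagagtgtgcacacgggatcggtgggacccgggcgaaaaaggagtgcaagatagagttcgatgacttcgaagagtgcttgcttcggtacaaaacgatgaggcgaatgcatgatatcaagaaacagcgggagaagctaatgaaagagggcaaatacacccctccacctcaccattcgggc
Gm12751, on the plus strand at chr4:34354043-34354423, is identical over 381 bases to a coding form of Polr1d. That gene is named for a subunit shared by RNA polymerases I and III, and whether this form encodes the subunit was not examined. Its first 300 bases hold no difference from the parent and so no capitals.
Gm12751: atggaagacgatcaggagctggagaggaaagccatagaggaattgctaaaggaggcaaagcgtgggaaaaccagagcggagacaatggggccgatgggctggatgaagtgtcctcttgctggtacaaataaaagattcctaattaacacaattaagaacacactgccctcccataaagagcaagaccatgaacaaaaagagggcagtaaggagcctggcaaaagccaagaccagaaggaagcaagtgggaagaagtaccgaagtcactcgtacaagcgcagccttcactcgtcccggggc
Gm9855, a copy of the thymine DNA glycosylase gene Tdg on the minus strand of chromosome 10, differs from it by 9 substitutions over 1194 aligned bases. Of these, 8 fall in the 300 bases at chr10:42054206-42054505, where they are in capitals.
Gm9855: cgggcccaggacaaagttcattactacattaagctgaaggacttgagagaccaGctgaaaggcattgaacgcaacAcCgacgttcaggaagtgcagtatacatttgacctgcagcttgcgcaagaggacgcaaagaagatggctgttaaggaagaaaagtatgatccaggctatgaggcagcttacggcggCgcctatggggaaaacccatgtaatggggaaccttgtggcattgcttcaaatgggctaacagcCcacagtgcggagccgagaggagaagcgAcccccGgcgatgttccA
Gm8730, a copy of Rplp0 on the minus strand of chromosome 8, differs by 12 substitutions over 954 bases, and its reading frame runs to the stop at codon 318, the length of the Rplp0 frame. The 300 bases at chr8:102865241-102865540 hold 6 of them, in capitals.
Gm8730: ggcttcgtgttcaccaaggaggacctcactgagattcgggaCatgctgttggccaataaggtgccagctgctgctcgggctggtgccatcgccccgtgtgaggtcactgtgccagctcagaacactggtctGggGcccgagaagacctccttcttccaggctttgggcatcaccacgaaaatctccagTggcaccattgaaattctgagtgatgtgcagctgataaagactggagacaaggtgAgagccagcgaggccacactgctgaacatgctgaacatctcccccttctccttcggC

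The pseudogene rows were weakly read. The median of their mean CPM (the deposited read level, counts scaled to library size) was 2.42, against 19.9 over all rows, and the highest was 54.9. Together they took 20927 counts in the P95H library, 0.0494% of 42366695 (95% exact binomial interval 0.0487 to 0.0501), and 22527 counts in the WT library, 0.0504% of 44733445 (0.0497 to 0.0510). These intervals, and all others here, cover counting error only, and not variation between mice or libraries. They treat each read as a separate molecule, and no molecular identifiers are described for the reads. The table lists only rows with a CPM above 1 in at least 1 library. Of the pseudogene rows, 66 were above 1 in both libraries, 13 in P95H alone and 11 in WT alone, and a row listed through 1 library alone had to differ to some extent.

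Differences are P95H minus WT on log2(CPM + 1), and a size of 1 is called 2-fold. This scale understates the change of low rows. Of the 90 pseudogene rows, 7 were at least 2-fold higher in P95H (7.78%) and 2 at least 2-fold lower (2.22%), where 1.76% and 2.1% of all rows were. Among all rows with a mean CPM under 10, where most pseudogenes lie, the shares were 1.74% and 2.88%. Of the 7 higher rows, 6 had a CPM under 1 in WT, so they were listed through P95H, where they were high. Among rows with at least 1 CPM in both libraries, 1 of 66 pseudogene rows was higher (1.52%, against 1.61% of all such rows) and 1 lower (1.52%, against 1.8%). The larger share of higher rows is thus not seen among rows listed through both libraries, and nothing particular to pseudogenes is read from it. The 4 copies of Hmgn2 make up 4 of the 7 higher rows, and they share a parent sequence, so they are not independent. Without them 3 of 86 rows were higher and 2 lower. The median difference of the pseudogene rows was 0.03, and over all rows it was -0.00. The members nearest the threshold were BC002163 at 1.59 and Gm12751 at -1.59 inside it, and Gpr137b-ps at 0.74 and Gm6314 at -0.99 outside it.

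**Figure D1:**
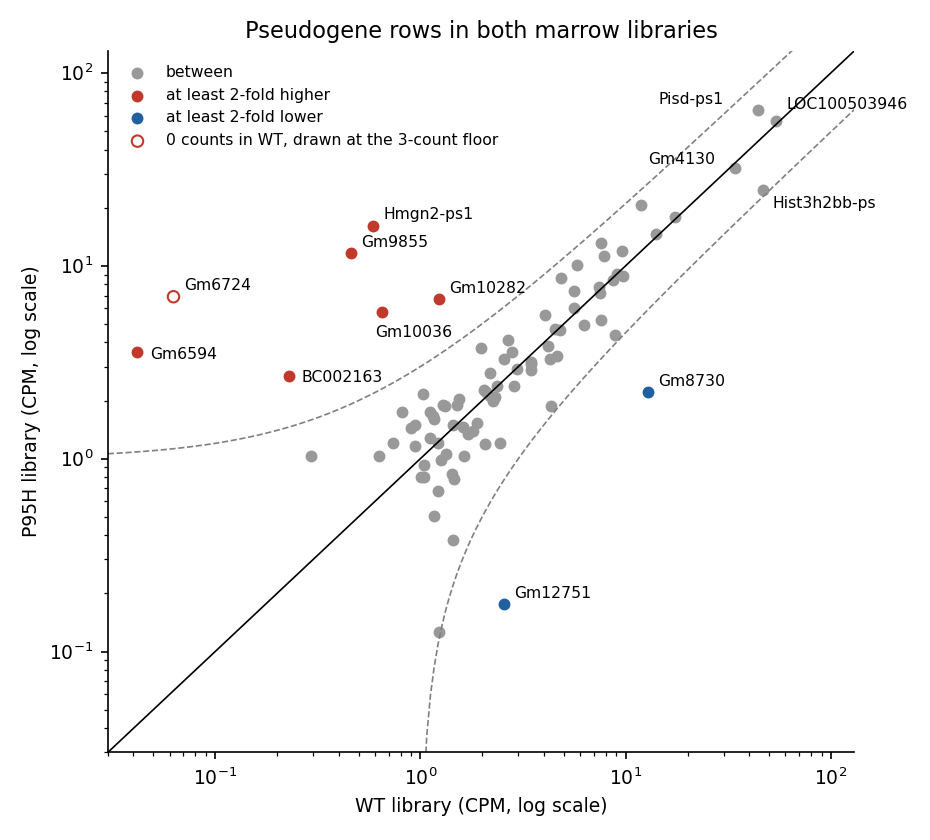
Level of each of the 90 pseudogene rows in the WT library (x axis) and the P95H library (y axis), in CPM on log scales. The solid line marks equal levels and the dashed lines a difference of 1 on log2(CPM + 1); 7 rows lie above the band and 2 below it, and Gm6724, with 0 counts in WT, is drawn at the floor of 3 counts.

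The 4 rows named as copies of Hmgn2 were all high in the P95H library and low in the WT library. Hmgn2-ps1 had 641 counts in P95H and 28 in WT, which is 16.1 and 0.585 CPM, a CPM ratio of 27.6 (18.9 to 41.9). Gm6724 had 274 counts and 0, and by the lower limit of the same counting interval its CPM was at least 89-fold higher in P95H. The ratio was 110 with the WT library set at a floor of 3 counts. Gm6594 had 141 counts and 2, a ratio of 85 (23.1 to 709). Gm10282, which GENCODE types as protein coding, had 267 counts and 59, a ratio of 5.46 (4.10 to 7.37). On log2(CPM + 1) these differences were 3.44, 2.98, 2.13 and 1.79.

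**Figure D2:**
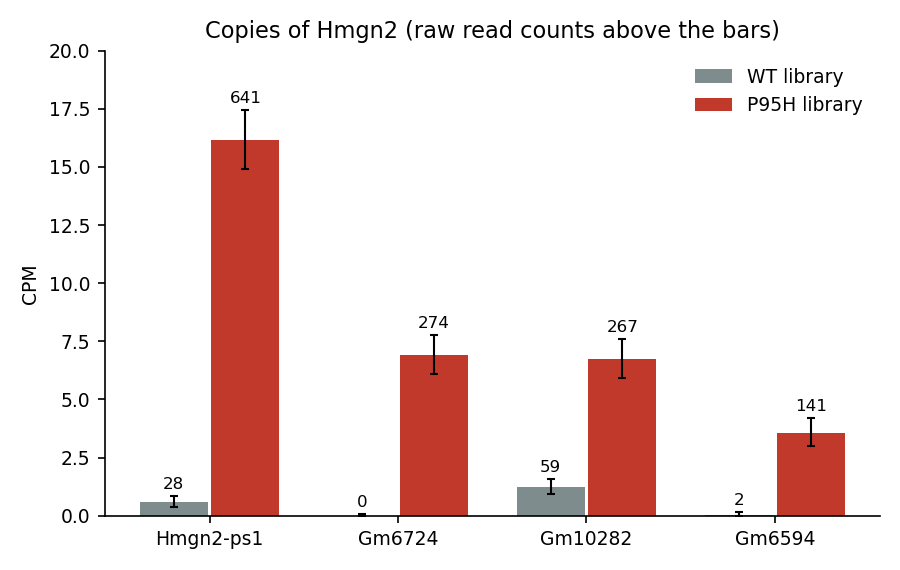
CPM of the 4 rows named as copies of Hmgn2 in each library, with raw read counts above the bars and 95% exact Poisson counting intervals as error bars. Every copy stands higher in the P95H library, from 641 against 28 counts for Hmgn2-ps1 to 141 against 2 for Gm6594.

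Hmgn2 itself was near level. It had 24329 counts in P95H and 27067 in WT, which is 613 and 565 CPM, a difference of 0.12 on log2(CPM + 1). The 4 copies together had 1323 counts in P95H and 89 in WT, so that for every 100 reads on Hmgn2 there were 5.44 on the copies in P95H and 0.329 in WT. Parent and copies summed came to 646 CPM in P95H and 567 CPM in WT. The copies differed among themselves in how much sequence they share with the parent: every 75-base window (the read length) of Hmgn2-ps1 occurs in an Hmgn2 transcript, 61.8% of those of Gm10282 and 6.6% of those of Gm6594. Of 10 genes of the high mobility group, Hmgn2 included, 9 were listed, 0 at least 2-fold higher and 1 lower. That gene was Hmgn1, with 726 counts in P95H and 1965 in WT, a difference of -1.12, and the other end of the group was Hmga2, with 42 and 21 counts, a difference of 0.52. The copy of another family member, Hmgb1-ps7, had 59 and 45 counts, a difference of 0.36.

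The other 3 higher rows each had a different parent. Gm9855, the Tdg copy, had 461 counts in P95H and 22 in WT, which is 11.6 and 0.459 CPM, a ratio of 25.3 (16.5 to 40.7). Tdg, which encodes an enzyme that removes mispaired thymine and oxidised methylcytosine from DNA, had 845 and 912 counts, a difference of 0.15. The copy thus stood at 54.6 reads per 100 reads on Tdg in P95H (48.6 to 61.2) and 2.41 in WT (1.5 to 3.67).

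Gm10036, a copy of the ribosomal protein gene Rpl11, had 228 counts in P95H and 31 in WT, a CPM ratio of 8.87 (6.08 to 13.4). Rpl11 had 10696 and 14101 counts, a difference of -0.13. A second Rpl11 copy, Gm10288, had 94 and 136 counts, a difference of -0.19, so the copies of this parent differed in direction. BC002163, the Ndufs5 copy, had 107 counts in P95H and 11 in WT, a ratio of 11.7 (6.3 to 24.2), while Ndufs5 had 391 and 565, a difference of -0.24. BC002163 lies inside Zbtb20, which encodes a zinc finger transcription factor, on the same strand. Zbtb20 had 269 counts in P95H and 462 in WT, a difference of -0.45, the opposite direction to BC002163.

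The rows at least 2-fold lower in P95H, Gm8730 and Gm12751, have different parents. Gm8730, the copy of Rplp0, which encodes a protein of the ribosomal stalk, had 88 counts in P95H and 614 in WT, which is 2.22 and 12.8 CPM, a ratio of 0.173 (0.137 to 0.216). Rplp0 had 32178 and 37544 counts, a difference of 0.05. Gm12751, the Polr1d copy, had 7 counts in P95H and 122 in WT, a ratio of 0.0692 (0.0272 to 0.147), and Polr1d had 1345 and 1484, a difference of 0.12. Both copies were low in the P95H library beside parents that were near level.

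A stricter reading asks that the whole counting interval of the CPM ratio lie beyond 2-fold. The same 7 rows met it on the higher side (1.72% of all rows did). On the lower side 4 rows met it (2.31% of all rows), the added ones being Gm6314, a predicted pseudogene with 5 counts in P95H and 59 in WT, and Klra13-ps, with 15 and 69. Klra13-ps belongs to the Ly49 receptors, a family of natural killer cell receptors in the mouse. All 4 listed natural killer cell markers were at least 2-fold lower in P95H, none was at 0, and their summed level was 3.65 CPM in P95H and 15.9 CPM in WT, with Prf1 lowest at -1.76. Their part in the Klra13-ps difference was not tested. In whole marrow, fewer cells of a type and less RNA per cell cannot be told apart.

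Of the 52 parents, 0 were at least 2-fold higher in P95H, against 1.76% of all rows, and 1 was at least 2-fold lower (1.92%), against 2.1% of all rows. On the deposited scaling 25 parents lay above 0 and 27 below, and with plain library totals 9 above and 43 below, Hmgn2, Tdg, Polr1d and Rplp0 among those that changed sign. The lower parent was Cdh11, a cadherin of mesenchymal cells, with 142 counts in P95H and 404 in WT, a difference of -1.04. The 4 listed genes of marrow stroma and endothelium summed to 110 CPM in P95H and 189 CPM in WT, with 0 of 4 at least 2-fold lower and none at 0, and their part in the Cdh11 difference was not tested. The Cdh11 copies were nearly level: 2610005L07Rik had 285 and 359 counts, a difference of -0.06, and 6820431F20Rik had 196 and 301, a difference of -0.30. Neither copy shares a 75-base window with Cdh11.

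Over the 60 pairs, the difference of the pseudogene minus that of its parent had a median of 0.11, with 41 pairs above 0 and 19 below. In 10 pairs the differences lay at least 1 apart, 7 with the copy higher and 3 with it lower. The 7 are the higher rows already described, of which 4 share the parent Hmgn2 and 6 were listed through P95H. Among pairs with at least 1 CPM in both libraries for both rows, 3 of 43 lay at least 1 apart. Other rows have no parent, so no share over all rows stands beside these counts, and no lean of the copies is read from them. The 3 with the copy lower are Gm8730 at -2.15, Gm12751 at -1.72 and Gm4759 at -1.48. Gm4759 is an unprocessed copy of Gvin1, a very large interferon-inducible GTPase. It had 174 counts in P95H and 425 in WT, a difference of -0.88, while Gvin1 had 203 and 145, a difference of 0.60, so this pair went opposite ways. Next came Gm2629, a copy of the aldehyde dehydrogenase gene Aldh9a1, with 74 and 208 counts, a difference of -0.90 beside 0.06 for Aldh9a1. Gm12183, a copy of the RNA helicase gene Ddx5, had 208 and 363 counts, a difference of -0.46 beside 0.12 for Ddx5.

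**Figure D3:**
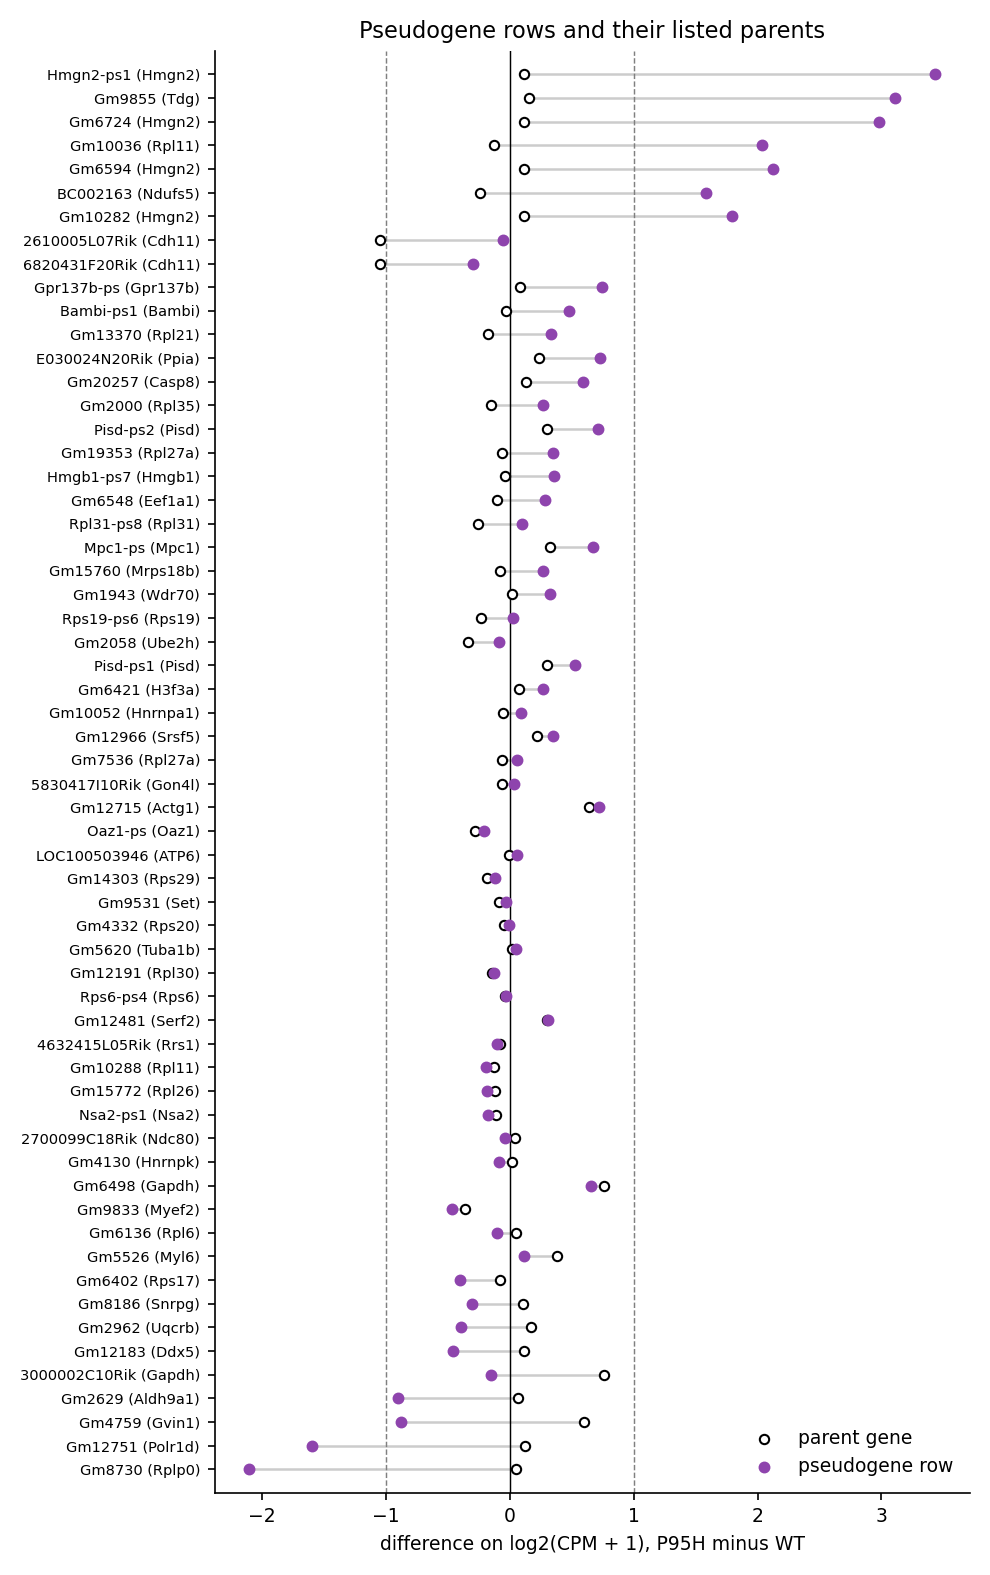
Difference between the libraries, P95H minus WT on log2(CPM + 1), of each of the 60 pseudogene rows (filled points) and of its parent (open points), ordered by the gap between them. The dashed lines mark 2-fold; the parents stay within them apart from Cdh11 at -1.04, which appears in 2 pairs.

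Most copies were read far less than their parents. Per 100 reads on the parent, the median pair had 1.37 reads on the copy in P95H and 1.29 in WT. Over the 25 pairs with at least 100 counts in both rows of both libraries, the median was 17.6 and 18. In 38 pairs the copy had fewer than 5 reads per 100 in both libraries, and in 33 of the 60 pairs the proportion differed by less than 1.5-fold between libraries. Rps6-ps4, a copy of a small-subunit ribosomal protein gene, had 1.44 and 1.43 reads per 100 on Rps6. Oaz1-ps, a copy of the antizyme gene that restrains polyamine synthesis, had 1.75 and 1.74. Gm5620, a copy of the alpha tubulin gene Tuba1b, was read far more relative to its parent but as evenly, at 50.6 and 49.3.

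In 3 pairs the copy outnumbered its parent in both libraries. Gpr137b-ps had 816 counts in P95H and 569 in WT, which is 334 and 207 per 100 reads on Gpr137b, a gene for a lysosomal membrane protein. LOC100503946, named as a copy of the mitochondrial ATP synthase subunit gene ATP6, had 2224 and 2573 counts, which is 266 and 254 per 100. GENCODE M21 does not hold LOC100503946 by symbol, so its likeness to ATP6 was not checked. Pisd-ps1, a copy of the gene for the mitochondrial enzyme that makes phosphatidylethanolamine, had 2541 and 2114, which is 161 and 138 per 100. In Cdh11 and Gvin1 pairs, by contrast, the copy outnumbered the parent in 1 library: 2610005L07Rik stood at 201 per 100 in P95H and 88.9 in WT, 6820431F20Rik at 138 and 74.5, and Gm4759 at 85.7 and 293.

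**Figure D4:**
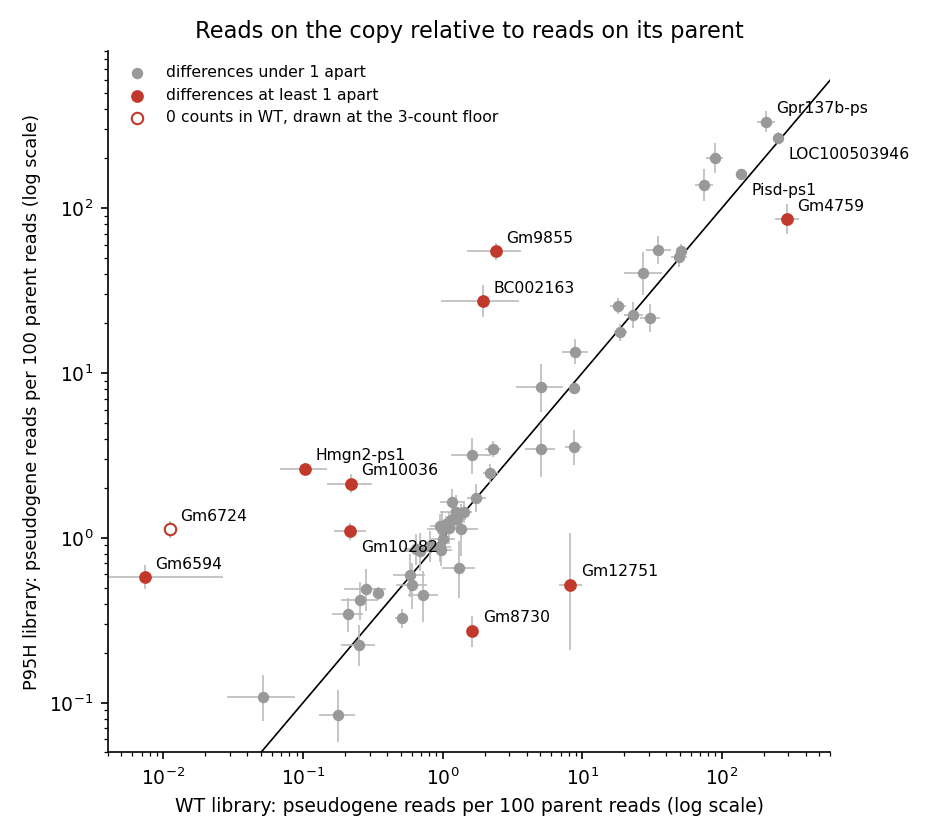
Reads on the pseudogene per 100 reads on its parent in the WT library (x axis) and the P95H library (y axis), on log scales, for 60 pairs with 95% counting intervals. In 33 pairs the proportions differ by less than 1.5-fold between libraries; the 10 whose differences are at least 1 apart are in red and named, among them Gm9855 at 54.6 in P95H and 2.41 in WT.

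The 12 pseudogene rows of highest mean CPM were all within 2-fold. After LOC100503946 and Pisd-ps1 came Hist3h2bb-ps, a histone H2B copy, with 985 counts in P95H and 2221 in WT, which is 24.8 and 46.4 CPM. Its difference of -0.88 was the largest in size among these 12. Gm4130, a copy of the RNA-binding protein gene Hnrnpk, had 1274 and 1636 counts, a difference of -0.09, beside 0.02 for Hnrnpk. 5830417I10Rik, a copy of Gon4l, had 713 and 836, a difference of 0.04. Gm12715, a copy of the gamma actin gene Actg1, had 520 and 361 counts, a difference of 0.72, and its parent had 40624 and 31485, a difference of 0.64, so copy and parent were higher to a similar degree. The others, Gpr137b-ps, Gm5578, Gm6548, Znf41-ps, Gm15427 and Tmem181b-ps, had differences of 0.74, 0.05, 0.29, 0.46, -0.12 and 0.00.

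Parents with more than 1 listed copy gave further within-family comparisons. The glycolytic gene Gapdh had 37901 counts in P95H and 26954 in WT, a difference of 0.76. Its copy Gm6498 had 41 and 14 counts, a difference of 0.65, while 3000002C10Rik had 32 and 48, a difference of -0.15. Pisd had a difference of 0.30, with 0.53 for Pisd-ps1 and 0.71 for Pisd-ps2, all 3 in the same direction. The ribosomal protein gene Rpl27a had -0.06, with 48 and 35 counts for Gm19353 (0.35) and 88 and 100 for Gm7536 (0.06).

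By what was copied, 16 pseudogene rows are named for ribosomal proteins, 7 are predicted pseudogenes with no parent in the name, and 67 are others. Of the 16 ribosomal protein copies, 1 was at least 2-fold higher (Gm10036) and 1 lower (Gm8730), and the median difference was -0.01. The 78 listed rows with a ribosomal protein gene symbol had 0 at least 2-fold higher and 0 lower, a median of -0.10 and 64 below 0. They ran from -0.59 for Rpl34 to 0.74 for Rps4l, which GENCODE M21 types as a transcribed processed pseudogene. The next highest was Rps9 at 0.29. Of the 7 predicted pseudogenes none was past 2-fold. All 9 called rows were among the 60 with a listed parent (15%), and of the 30 rows without one 0 were called in either direction. Of all rows, 3.86% were called in either direction, so 0 of 30 is near that share and no contrast is read from it.

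By how the copy arose, GENCODE M21 holds 81 of the 90 rows by symbol: 52 as processed pseudogenes, 21 as unprocessed and 8 under other types, such as protein coding or lincRNA. Of the 52 processed rows 5 were at least 2-fold higher and 2 lower, with a median of 0.07, where 1.76% and 2.1% of all rows were. The higher ones include Hmgn2-ps1 and Gm6594, which share the parent Hmgn2 and are not independent. Of the 21 unprocessed rows 0 were called, and they ran from -0.88 for Gm4759 to 0.74 for Gpr137b-ps. With 21 rows, 0 is near the shares of all rows and is not read as a trait of unprocessed copies. The difference between these shares was not tested. The remaining called rows were Gm10282, typed protein coding, and Gm6724, not matched by symbol.

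Copies close to their parent were found both among the called rows and among those level between the libraries. Of 55 pairs that could be aligned, the median identity was 99.3%, and 49 copies share at least 1 window of 75 bases with the parent. Among 39 pairs of at least 98% identity, 5 copies were called higher and 2 lower, where 1.76% and 2.1% of all rows were. The 5 include Hmgn2-ps1 and Gm10282, which share a parent, and most higher rows were listed through P95H. At lower identity, 0 of 5 copies (95 to 98%), 1 of 7 (90 to 95%) and 0 of 4 (under 90%) were called. These groups are small, and no link between identity and a call is read from them. The 12 copies identical to their parent over the aligned stretch included Hmgn2-ps1 at 3.44 and Gm12751 at -1.59, and also Rps6-ps4 at -0.03, Gm10052 (Hnrnpa1) at 0.09, Gm9531 (Set) at -0.03 and Gm14303 (Rps29) at -0.12. Gm6594 was the least alike of the called copies, at 92.3% with its gaps counted. The sources used here do not give the treatment of reads with several possible positions, which leaves the split of reads between these copies and their parents uncertain.

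**Figure D5:**
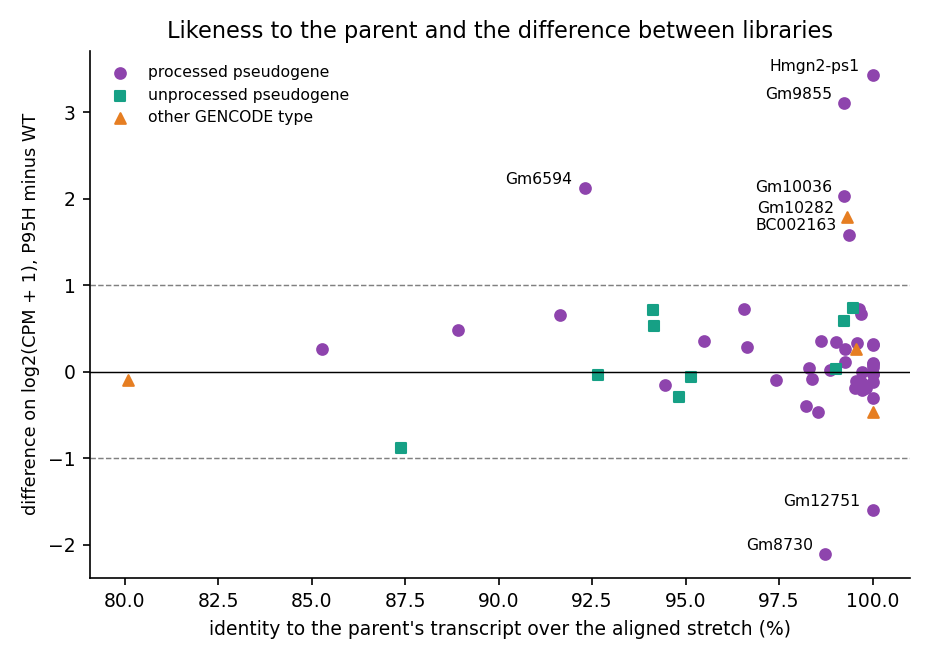
Identity of the copy to its parent's transcript over the aligned stretch (x axis, percent) against the difference between libraries (y axis, P95H minus WT on log2(CPM + 1)) for 55 pairs, by GENCODE type. Copies of at least 98% identity run from -2.10 to 3.44, and most lie between the dashed 2-fold lines.

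Position adds a further limit for some rows. On GRCm38, 10 pseudogene rows lie inside another listed gene on the same strand, 7 of them with a difference of the same sign as the host and 3 of the opposite sign, and 7 overlap one on the opposite strand, and the sources used here do not say if strand entered the counting. The host with the largest difference was Fcrla, an Fc receptor-like gene of B cells, with 773 counts in P95H and 3575 in WT, a difference of -1.89. Gm2962, the Uqcrb copy inside it, had 27 and 58 counts, a difference of -0.40. All 5 listed B cell markers were at least 2-fold lower in P95H, none was at 0, and they summed to 110 CPM in P95H and 399 CPM in WT, with differences from -2.07 for Ms4a1 to -1.63 for Pax5. Their part in the Gm2962 difference was not tested. Gm13370, an Rpl21 copy inside Pnpla7, had 75 and 62 counts, a difference of 0.33, beside 0.43 for Pnpla7, and Gpx2-ps1 inside Pgm2l1 had -0.37 beside -0.76. The pairs of opposite sign were BC002163 inside Zbtb20, Gm19353 at 0.35 inside Zfp280d at -0.41, and Gm14057 at 0.38 inside 4930402H24Rik at -0.11.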

How the data were processed

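Total RNA of whole bone marrow was depleted of ribosomal RNA and sequenced from stranded libraries as 75 bp paired reads in a single run, per the labels' protocols. Tools in the submitters' processing notes are STAR 2.5.3a, featureCounts, edgeR, Picard 1.96, cutadapt and Trim Galore, with mm9 as the mouse build and no role for each. Raw counts per gene were taken unchanged from the deposited table, per the file headers. The deposited CPM is a normalised signal whose columns sum to 1067265 (P95H) and 934268 (WT), which gives effective library sizes of 39696495 and 47880724 reads. The authors' deposited log2 fold change and linear ratio (fold) columns were recomputed from CPM after adding 0.001 to both libraries, matched, and were not used further.

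The members, gene lists and comparisons were chosen with earlier results of these data known. A parent was matched by symbol stem (12 pairs), by description (44) or by hand (4: BC002163, 5830417I10Rik, 2700099C18Rik and 4632415L05Rik, matched after the table was seen). Differences are on log2(CPM + 1). Ratios carry 95% Clopper-Pearson intervals, exact given the summed counts, and a 0 is bounded at 3 counts, 0.0627 CPM in WT. No p-value was computed with 1 library per genotype. Named are rows past 2-fold, the 12 of highest mean CPM, the 6 largest and 6 smallest pseudogene-minus-parent differences, the rows nearest the threshold, families with more than 1 copy, the ends of the related lists, and each one's parent. Other rows named as examples of even proportions, of identical copies or of overlap with a host gene were chosen after their values were seen, as were Klra13-ps and Hmgb1-ps7.

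Sequences, types and overlaps came from GENCODE M21 on GRCm38, which is not the submitters' build, so no coordinate was carried between builds. The sequences of 2 of the 4 Hmgn2 copies are not reported here. Copies were aligned to their parent's transcripts with blastn 2.17.0 and to coding sequences with Biopython 1.88. Intervals came from SciPy 1.17.1. On simulated counts for P95H against WT over 12860 rows, 50 rows were changed at each of 4 sizes. The changed rows were drawn only from rows with a higher mean CPM than most pseudogene rows have. How the rule finds changes in lower rows was therefore not simulated. The size rule called 0 of those changed 1.5-fold, all 50 at each of 3-fold, 4-fold and 8-fold, and 0 of the 12660 left alone. Its intervals held the true ratio for 95.4% of rows. Both libraries were drawn with counting error alone, which the intervals also assume. The simulation therefore says nothing of false calls from variation between mice or libraries.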

Additional observations from a re-analysis of the deposited data

How the results depend on the processing

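No paired analysis was possible because each genotype has 1 library and the libraries share no replicate number. All 9 called rows kept their direction under every pseudocount and scaling tried, and 4 of the 9 stayed past a difference of 1 under all 5 of these settings. The smallest size was 0.54, for Gm12751. Of 710 values of single rows and parents under these settings 52 changed sign, 27 with plain totals, 24 with trimmed totals (haemoglobin and the 20 most abundant genes left out) and 1 with median-of-ratios factors. None of the 52 was larger than 0.17 in size on the deposited scaling.

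The count of rows at least 2-fold higher (7) was 3 with log2(CPM + 5), 2 of 14 where 1 library had to reach 10 CPM, 1 of 66 where both had to reach 1 CPM, 15 at 1.5-fold and 1 of 25 with members taken by symbol only. Over all rows (226) the same count was 125 with log2(CPM + 5), 163 of 8481 and 195 of 12096 under the filters, and 906 at 1.5-fold. The count at least 2-fold lower (2) was 7 with log2(CPM + 0.1), 1 with log2(CPM + 5), 6 with plain totals, 7 with trimmed totals, 1 under either CPM filter, 8 at 1.5-fold, 1 at 4-fold, 0 by symbol only and 4 by the counting interval. Over all rows (270) it was 593 with log2(CPM + 0.1), 107 with log2(CPM + 5), 463 with plain totals, 477 with trimmed totals, 154 and 218 under the filters, 1039 at 1.5-fold, 24 at 4-fold and 297 by the counting interval, so these settings moved all rows as well. Plain totals moved the median of all rows by -0.17 and trimmed totals by -0.13, and the pseudogene median (0.03) to -0.13 and -0.086. It was 0.37 among the 14 rows reaching 10 CPM. The 10 pairs at least 1 apart became 5 with log2(CPM + 5), 3 under either filter, 6 at 4-fold, and 1 by symbol only or with parents by symbol stem, where the median gap (0.11) was 0.35. An alternative chosen after seeing the data, without the 4 Hmgn2 copies, left 3 higher rows and 6 pairs. The share of counts was 0.0187% in P95H and 0.0183% in WT by symbol only, and 0.0663% and 0.0652% over trimmed totals. Over the 25 pairs with at least 100 counts in both rows of both libraries the median was 17.6 reads per 100 parent reads in P95H and 18 in WT.

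Depth limits the low rows: 50 of the 90 had a mean CPM under 3, where the pseudocount sets much of the difference.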

Other observations

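GENCODE M21 types 43 further listed rows as pseudogenes although neither their symbol nor their description says so. None of them was at least 2-fold higher in P95H and 1 was lower, with a median difference of 0.09. These counts are near the shares of all rows (1.76% and 2.1%). Some of the 43 are of the polymorphic type, such as Clec7a with 8150 counts in P95H and 9250 in WT, and none was compared with a parent. The lower row was Gm11735, an unprocessed pseudogene with 0 counts in P95H and 77 in WT, named after its value was seen. Rows named as predicted genes that are no pseudogene rows numbered 244. In P95H 5 of these stood at least 2-fold higher (2.05%) and 2 lower (0.820%). The ends were Gm19719, with 664 counts in P95H and 238 in WT, a difference of 1.57, and Gm19980, with 478 and 1805 counts, a difference of -1.57.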
